A study of Mus musculus with 6 samples.

Results

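The 10 genes described here are members of the NF-kB pathway: the subunit genes Nfkb1, Nfkb2, Rel, Rela and Relb, the inhibitor genes Nfkbia, Nfkbib and Nfkbie, the feedback gene Tnfaip3, and the target gene Ltb. They were chosen by name, with earlier results of these data known, and each of the 10 matched 1 of the 29626 genes in the deposited table. RNA was sequenced from CD4+CD8+ double-positive thymocytes, sorted by flow cytometry from mice 8 weeks old. The control group held 3 Kansl1fl/fl mice, which carry a floxed Kansl1 gene and no Cre, and the KANSL1-deficient group held 3 Kansl1fl/fl CD4-Cre mice, in which that floxed gene is joined by a Cre transgene named for Cd4. The controls were littermates and the cells were taken up without stimulation in culture. Since Cre is present in 1 group only, what it does on its own and what the loss of Kansl1 does cannot be told apart. KANSL1 is a subunit of a chromatin complex with the histone acetyltransferase KAT8, and the comparison asked which transcripts differ between the genotypes at this stage.

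NF-kB factors are dimers of Rel-family subunits that are held in the cytoplasm by inhibitor proteins of the IkB family until a kinase complex, IKK, marks the inhibitor for destruction. The freed dimer enters the nucleus and transcribes, among other genes, those for its own inhibitors, so the pathway shuts itself off by negative feedback. In the thymus, signals from the T cell receptor and from receptors of the TNF family use this pathway, and lymphotoxin made by developing T cells acts on the medullary epithelium. Transcript levels do not report where the proteins are in the cell.

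The libraries held between 19361968 and 22459830 counts. Kansl1 itself was read at 189 to 230.1 CPM (counts scaled to library size) in control and at 146 to 188 CPM in KANSL1-deficient libraries, a log2 fold change of -0.33 ± 0.14 (SE) that did not pass the threshold of an adjusted p under 0.05 (adjusted p = 0.171 by the quasi-likelihood test of edgeR, Benjamini-Hochberg method). Those counts cover the whole gene, so a deleted exon cannot be seen in them and they check the genotype labels weakly. Cd4 (1787 to 2587 CPM) and Cd8a (1897 to 3042 CPM) were abundant in both groups. The 12 double-positive markers summed to 12461 to 12968 CPM in control and 14318 to 15581 CPM in KANSL1-deficient libraries. Of the 12, 2 were called higher in edgeR, Rag2 among them, beside 3.85% of all tested genes and 13.2% of the decile with the highest mean CPM. At an unadjusted p under 0.05 in edgeR, 8 of the 12 were higher, beside 11.7% of all tested genes. Zbtb7b, which defines the CD4 single-positive lineage, was read 0 or 1 time per library.

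Nfkbia and Ltb rose in the KANSL1-deficient cells, by about 1.75-fold and 1.70-fold, while the other 8 members did not pass the threshold. Nfkbia encodes IkB alpha, an inhibitor whose gene is a classical target of NF-kB, and Ltb encodes lymphotoxin beta. For the subunit genes Rela, Nfkb1, Nfkb2 and Relb the groups overlapped, with fold changes of 0.900, 1.07, 0.997 and 1.58. Rel and Tnfaip3 were higher in each KANSL1-deficient library than in each control library and did not pass (edgeR adjusted p = 0.0530 and 0.0722). Each passed in 4 of 11 alternatives with all libraries. The 2 members called of 10 compare with 6.76% of the 15353 tested genes called in either direction and 3.85% called higher. Fold changes in this comparison rose with abundance: in the decile of tested genes with the highest mean CPM, which holds Nfkbia, Nfkbie, Tnfaip3 and Ltb, 13.2% were called higher. In bulk RNA, a change in the number of cells of one kind and a change in RNA per cell cannot be told apart.

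**Figure D1:**
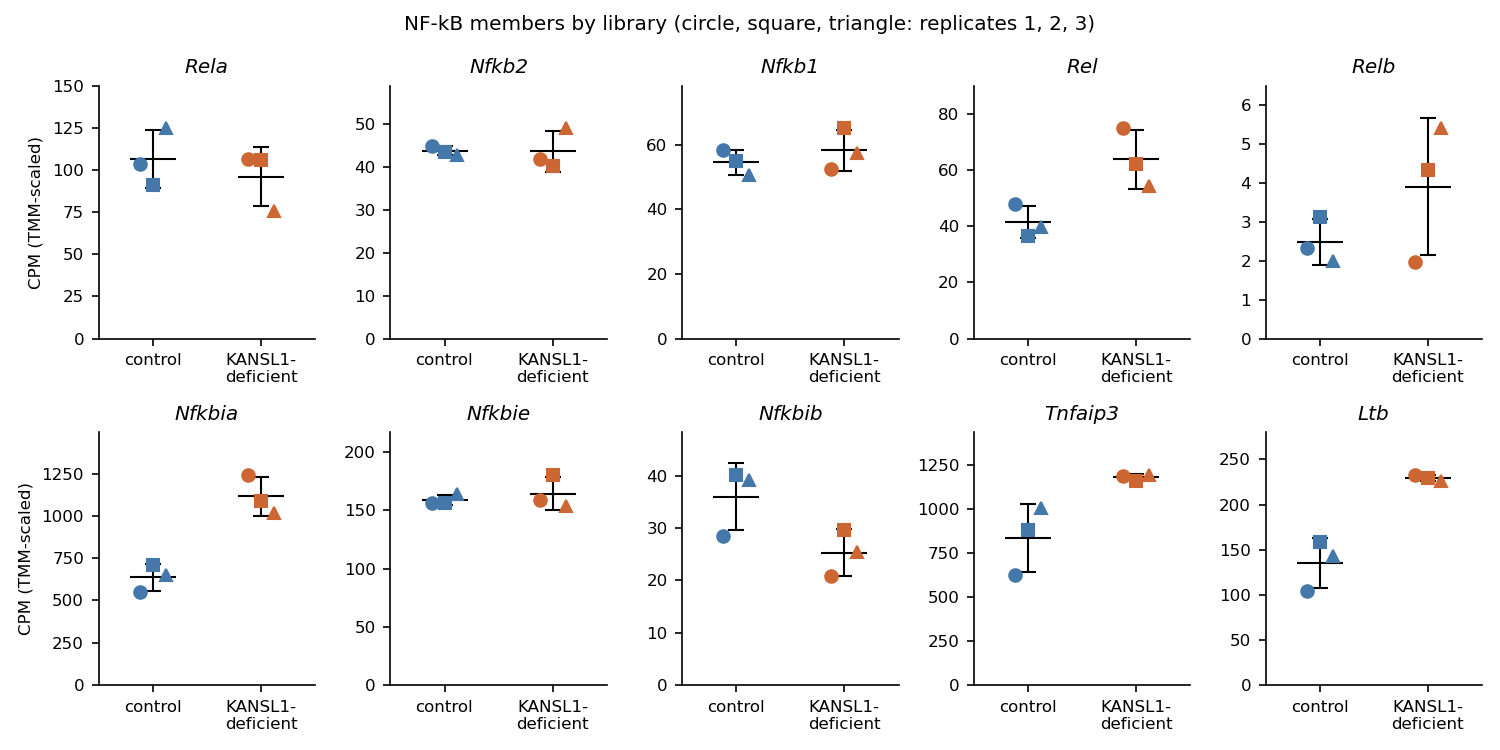
CPM scaled by TMM factors in every library for each of the 10 members, with circles, squares and triangles for replicates 1, 2 and 3, and bars for the mean ± SD (n = 3). The groups do not overlap for Rel, Nfkbia, Tnfaip3 and Ltb, and they overlap for the other 6 members.

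Groups did not overlap in 4 of 10 members, Rel, Nfkbia, Tnfaip3 and Ltb, each higher in KANSL1-deficient cells; 14.6% of all tested genes were higher with no overlap. For each of these 4 members the exact two-sided permutation test of CPM gave p = 0.1, the smallest value that 3 against 3 libraries allow. At an unadjusted p under 0.05, 5 members passed in edgeR, these 4 and Nfkbib, against 22.6% of all tested genes. None of the 10 was called lower by edgeR, DESeq2 or limma-voom, and Nfkbib was the 1 member that was lower at an unadjusted p under 0.05. The median log2 fold change of the 10 members was 0.30, beside -0.02 for all tested genes. With scaling by library totals those medians were 0.15 and -0.17, and the calls over all genes went from 591 higher and 447 lower to 367 higher and 959 lower. Directions below are therefore relative to the TMM scale, except where FPKM or another scaling is named.

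The subunit genes came first in the pathway. Rela encodes the subunit with the main transactivation domain of the classical dimer. It was read at 104, 91.2 and 125 CPM in control replicates 1 to 3 and at 107, 106 and 75.8 CPM in KANSL1-deficient replicates 1 to 3. The groups overlapped, with the lowest value in KANSL1-deficient replicate 3, and the fold change was 0.900 (95% interval 0.695 to 1.17; edgeR adjusted p = 0.673).

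Nfkb1 encodes the precursor of the partner that most often pairs with Rela. Its CPM were 58.3, 54.9 and 50.5 in control and 52.6, 65.2 and 57.3 in KANSL1-deficient libraries, a fold change of 1.07 (0.850 to 1.35; edgeR adjusted p = 0.781). Nfkb2, whose product is processed in the alternative pathway, was read at 44.9, 43.5 and 42.8 CPM in control and 41.8, 40.1 and 49.0 CPM in KANSL1-deficient libraries, a fold change of 0.997 (0.786 to 1.27; edgeR adjusted p = 0.993). For both genes the groups overlapped. The highest value was in KANSL1-deficient replicate 2 for Nfkb1 and in KANSL1-deficient replicate 3 for Nfkb2. Without that library the log2 fold change was 0.0122 for Nfkb1 and -0.0902 for Nfkb2. The small log2 fold changes of Nfkb1 (0.097) and Nfkb2 (-0.0041) change sign among the alternatives, Nfkb1 with library totals (-0.053) and Nfkb2 with the abundance trend removed (0.028). Nfkb1 overlaps 3897 bases of Gm43430 on the same strand, which had 975 counts over all libraries against 7198. Nfkb2 overlaps 1317 bases of 4833438C02Rik and 299 bases of Psd on the other strand, with 2268 and 1281 counts against 5570.

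Rel encodes c-Rel, the subunit most tied to lymphocytes. It was read at 47.9, 36.8 and 39.8 CPM in control and at 75.1, 62.3 and 54.5 CPM in KANSL1-deficient libraries, with means of 41.5 ± 5.78 and 64.0 ± 10.4 CPM (SD over 3 mice). Every KANSL1-deficient library lay above every control library. The log2 fold change was 0.62 ± 0.18 (SE), a fold of 1.54 (1.18 to 2.01), and the edgeR adjusted p of 0.0530 missed the threshold. DESeq2 (adjusted p = 0.00904) and limma-voom (0.0454) called Rel higher; over its 11 alternatives with all 6 libraries the adjusted p lay between 0.00904 and 0.316.

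Relb, the partner of the processed Nfkb2 product, was the least abundant member, at 2.32, 3.12 and 1.98 CPM in control and 1.97, 4.34 and 5.41 CPM in KANSL1-deficient libraries. These values rest on 40 to 108 counts per library. The groups overlapped, KANSL1-deficient replicate 1 being the lowest of all, and the interval of the fold change (0.792 to 3.14 around 1.58) was too wide to show whether the level differed.

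Among the inhibitors, Nfkbia (ENSMUSG00000021025, GRCm39 chromosome 12, 55536195 to 55539432, minus strand) was the member with the smallest p. It was read at 551, 711 and 653 CPM in control and at 1245, 1087 and 1020.0 CPM in KANSL1-deficient libraries. No library overlapped, the lowest KANSL1-deficient value lying above the highest control value by more than the spread within either group (SD 80.6 and 115 CPM). The log2 fold change was 0.81 ± 0.13 (SE; edgeR adjusted p = 0.00628), a fold of 1.75 with a 95% interval of 1.44 to 2.13. Nfkbia stayed past the threshold with each library left out in turn (log2 fold change 0.70 to 0.87), and its log2 fold change was 0.52 after removal of the abundance trend (adjusted p = 0.0257). Over its 11 alternatives with all libraries the adjusted p lay between 6.43e-07 and 0.136, and it missed the threshold only with log2(FPKM + 1) without a filter.

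Nfkbie encodes IkB epsilon, an inhibitor that, like IkB alpha, can be induced by NF-kB. Its levels were 157, 157 and 164 CPM in control and 159, 181 and 153 CPM in KANSL1-deficient libraries. The groups overlapped, and the fold change of 1.03 had an interval of 0.860 to 1.24 (edgeR adjusted p = 0.876); its log2 fold change of 0.047 was -0.10 with library totals.

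Nfkbib encodes IkB beta, a further inhibitor of the family. It was read at 28.5, 40.2 and 39.1 CPM in control and at 20.8, 29.6 and 25.5 CPM in KANSL1-deficient libraries. Control replicate 1 lay below KANSL1-deficient replicate 2, the 1 overlap between the groups. Its log2 fold change, -0.51 ± 0.21 (SE), missed the threshold (edgeR adjusted p = 0.164). The gene overlaps 778 bases of Sirt2 on the other strand, which had 24280 counts over the 6 libraries against 3953 for Nfkbib, and the sources used here do not give the strand setting of the counting.

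**Figure D2:**
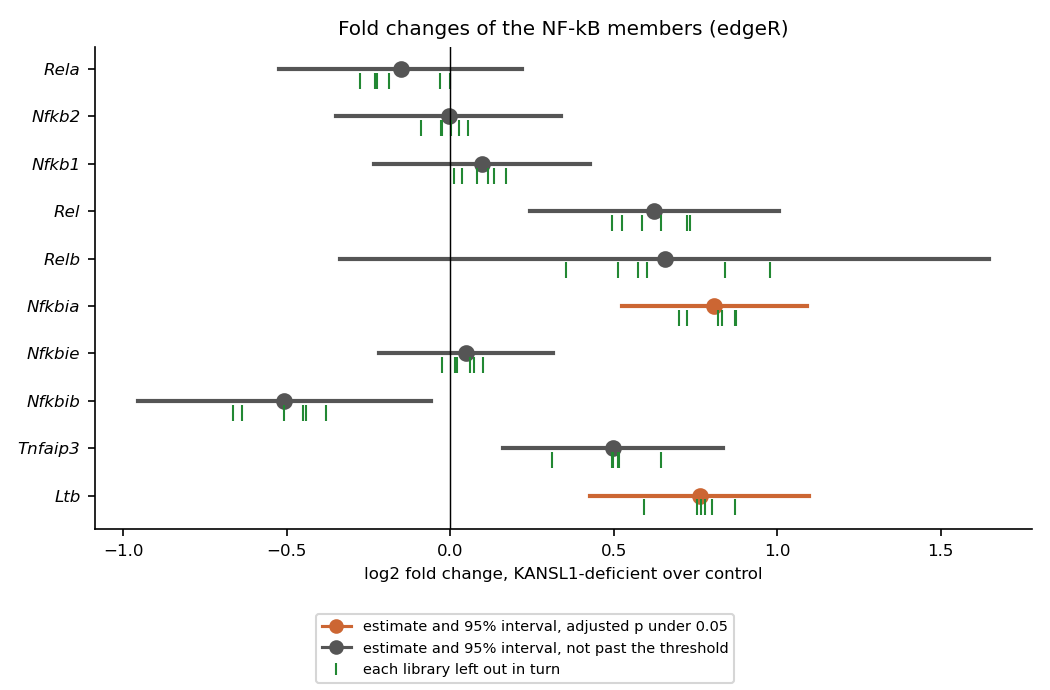
Log2 fold change of each member (points), its 95% interval (bars) and the estimates with each library left out in turn (green ticks), on the x axis. Nfkbia (0.81) and Ltb (0.76) passed the threshold; the intervals of Rel, Tnfaip3 and Nfkbib also leave out 0, before adjustment over all genes.

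Tnfaip3 encodes the ubiquitin-editing enzyme that ends signalling to IKK. It was read at 626, 882 and 1005 CPM in control and at 1189.7, 1163 and 1197 CPM in KANSL1-deficient libraries. The 3 KANSL1-deficient values lay close together (1183 ± 18.2 CPM; SD, n = 3) and above a wide control group (838 ± 193 CPM; SD, n = 3). With a log2 fold change of 0.50 ± 0.15 (SE) and a fold of 1.41 (1.12 to 1.78) the gene did not pass (edgeR adjusted p = 0.0722). The log2 fold change fell to 0.21 after removal of the abundance trend (adjusted p = 0.473) and to 0.31 without control replicate 1 (0.149), while without control replicate 3 it was 0.64 and passed (0.0424). Tnfaip3 was the most abundant member by CPM, at rank 86 of the tested genes, ahead of Nfkbia at rank 113.

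Ltb (ENSMUSG00000024399, GRCm39 chromosome 17, 35413415 to 35415296, plus strand) encodes the membrane-anchored chain of the lymphotoxin heterotrimer. It was read at 104, 158 and 143 CPM in control and at 233, 229 and 226 CPM in KANSL1-deficient libraries. All KANSL1-deficient libraries lay above all controls and differed little among themselves (229 ± 3.67 against 135 ± 28.0 CPM; SD over 3 mice). This was a fold of 1.70 (1.35 to 2.14), or 0.76 ± 0.15 (SE) in log2 (edgeR adjusted p = 0.0151). Without KANSL1-deficient replicate 1 or 2 the log2 fold change was 0.75 or 0.77 and the adjusted p 0.0658 or 0.0641, past neither time. With all libraries the adjusted p lay between 4.05e-05 and 0.153 over 11 alternatives. A microRNA gene lies within Ltb on the same strand and had 875 counts against 23108 for Ltb.

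The authors' deposited table lists an adjusted p under 0.05 for 4 members, all higher: Nfkbia (1.01e-06), Ltb (1.23e-04), Rel (0.00961) and Tnfaip3 (0.0221). Of the genes that it gives an adjusted p, 7.92% were called higher. The DESeq2 test run here called the same 4 members, with 8.6% of genes called higher, and so did limma-voom, with 4.67%.

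The 250 bases upstream of the transcription start are shown for the 4 members whose groups did not overlap, because Nfkbia, Tnfaip3 and Rel are textbook targets of NF-kB as well as parts of the pathway. The sequences are RefSeq promoters of the GRCm38.p6 build, 5′ to 3′ along the gene, and capitals mark matches to the kappa-B consensus, the site that NF-kB dimers bind, on either strand.
Nfkbia, chr12:55492648-55492897, minus strand: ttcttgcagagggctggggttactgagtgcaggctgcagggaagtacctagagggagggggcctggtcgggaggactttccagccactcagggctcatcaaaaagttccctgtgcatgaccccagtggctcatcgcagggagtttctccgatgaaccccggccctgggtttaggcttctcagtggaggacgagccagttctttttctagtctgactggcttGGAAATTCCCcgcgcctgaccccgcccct
Ltb, chr17:35194257-35194506, plus strand: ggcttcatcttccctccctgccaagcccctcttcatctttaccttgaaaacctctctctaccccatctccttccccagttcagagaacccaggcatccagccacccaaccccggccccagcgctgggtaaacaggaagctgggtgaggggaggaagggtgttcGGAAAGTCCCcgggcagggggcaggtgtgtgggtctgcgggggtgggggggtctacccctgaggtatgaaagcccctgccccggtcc
Rel, chr11:23770970-23771219, minus strand: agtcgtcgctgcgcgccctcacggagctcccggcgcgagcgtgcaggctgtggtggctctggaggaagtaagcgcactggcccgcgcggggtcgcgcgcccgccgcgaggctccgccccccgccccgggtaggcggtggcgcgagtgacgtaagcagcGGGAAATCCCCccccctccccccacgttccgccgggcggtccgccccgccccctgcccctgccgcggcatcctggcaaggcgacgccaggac
Tnfaip3, first of 2 starts, chr10:19015411-19015660, minus strand: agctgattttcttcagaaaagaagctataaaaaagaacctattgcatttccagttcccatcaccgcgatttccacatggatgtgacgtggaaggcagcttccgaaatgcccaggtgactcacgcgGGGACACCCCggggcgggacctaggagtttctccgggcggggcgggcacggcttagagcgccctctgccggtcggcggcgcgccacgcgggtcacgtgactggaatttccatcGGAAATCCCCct

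Counted from the base before the start as -1, the match in Nfkbia lay at -29 to -20 and that in Ltb at -87 to -78. Rel held a pair of overlapping matches from -92 to -82, and Tnfaip3 held one at -125 to -116 and one at -12 to -3. RefSeq windows were found for 8 of the 10 members, with 11 starts; Nfkb1 and Relb had no entry. The consensus was matched in 6 of these 8 members and in 8 of the 11 windows, beside 7.25% of all 32851 windows of this length in the table. Nfkb2 and Nfkbie, whose transcripts did not pass the threshold, also held consensus matches. Rela and Nfkbib held none, nor did the window of the second Tnfaip3 start, which is not shown.

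Levels of different genes were compared per gene length, in the deposited FPKM. In control cells Nfkbia stood highest at 416 ± 46.3 FPKM (SD, n = 3), followed by Tnfaip3 (122 ± 27.3) and Ltb (93.5 ± 18.1), whose values overlapped. Nfkbie (55.0 ± 1.78), Rela (36.6 ± 6.12), Nfkbib (17.4 ± 2.91) and Nfkb2 (10.04 ± 0.360) followed without overlap between neighbours. Rel (5.85 ± 0.906) and Nfkb1 (4.76 ± 0.375) overlapped, and Relb was last at 0.669 ± 0.150 FPKM. In KANSL1-deficient cells the order was the same. There Tnfaip3 (155 ± 4.70) and Ltb (143 ± 0.943) no longer overlapped, while Nfkbib (11.1 ± 2.02), Nfkb2 (9.04 ± 1.16) and Rel (8.11 ± 1.16) did so between neighbours.

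**Figure D3:**
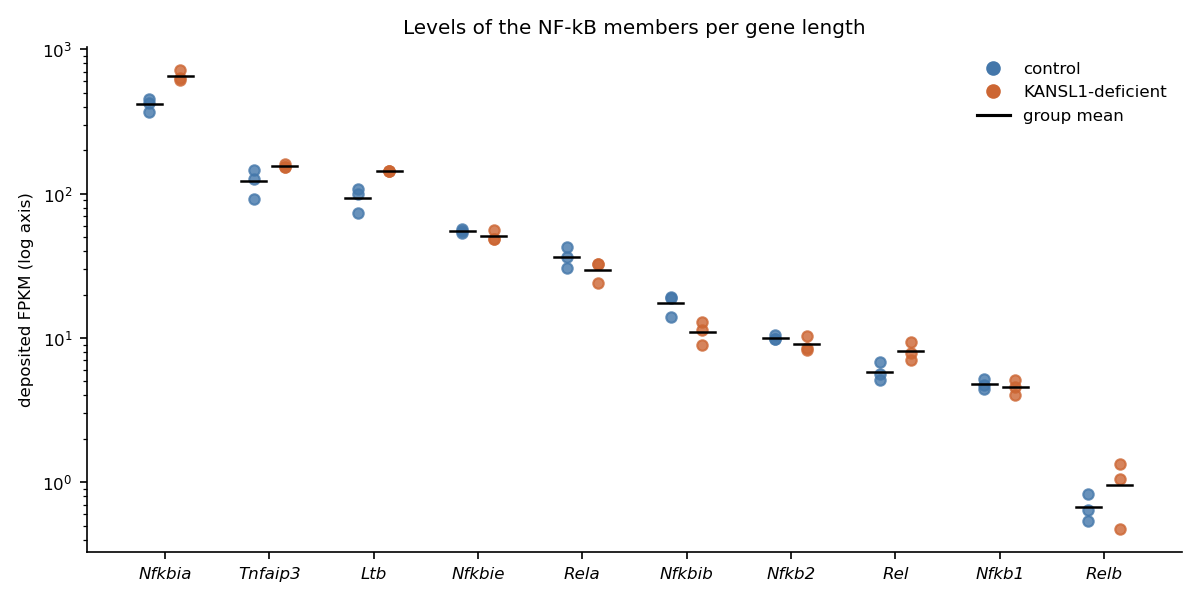
Deposited FPKM of each member on a log axis, 1 point per library and a line for the group mean, ordered by the control mean. Nfkbia is highest in both groups, at means of 416 and 657 FPKM, and Relb is lowest, at 0.669 and 0.958 FPKM.

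Summed over the 5 subunit genes, the level was 59.3, 51.2 and 63.3 FPKM in control and 54.7, 54.9 and 47.3 FPKM in KANSL1-deficient libraries, with overlap. The 3 inhibitor genes together reached 435, 529 and 503 FPKM in control and 777, 707 and 675 FPKM in KANSL1-deficient libraries, and Nfkbia made up 84.1% to 86.3% of that sum in control and 90.2% to 92.6% in KANSL1-deficient libraries. The ratio of inhibitor to subunit transcripts was therefore 7.33, 10.3 and 7.94 in control and 14.2, 12.9 and 14.3 in KANSL1-deficient libraries. Within the subunits, Rel made up 8.87% to 11.6% of the summed FPKM in control and 14.4% to 17.1% in KANSL1-deficient libraries, and Rela 60.0% to 67.8% and 50.6% to 59.3%. These sums describe the libraries and were not tested.

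**Figure D4:**
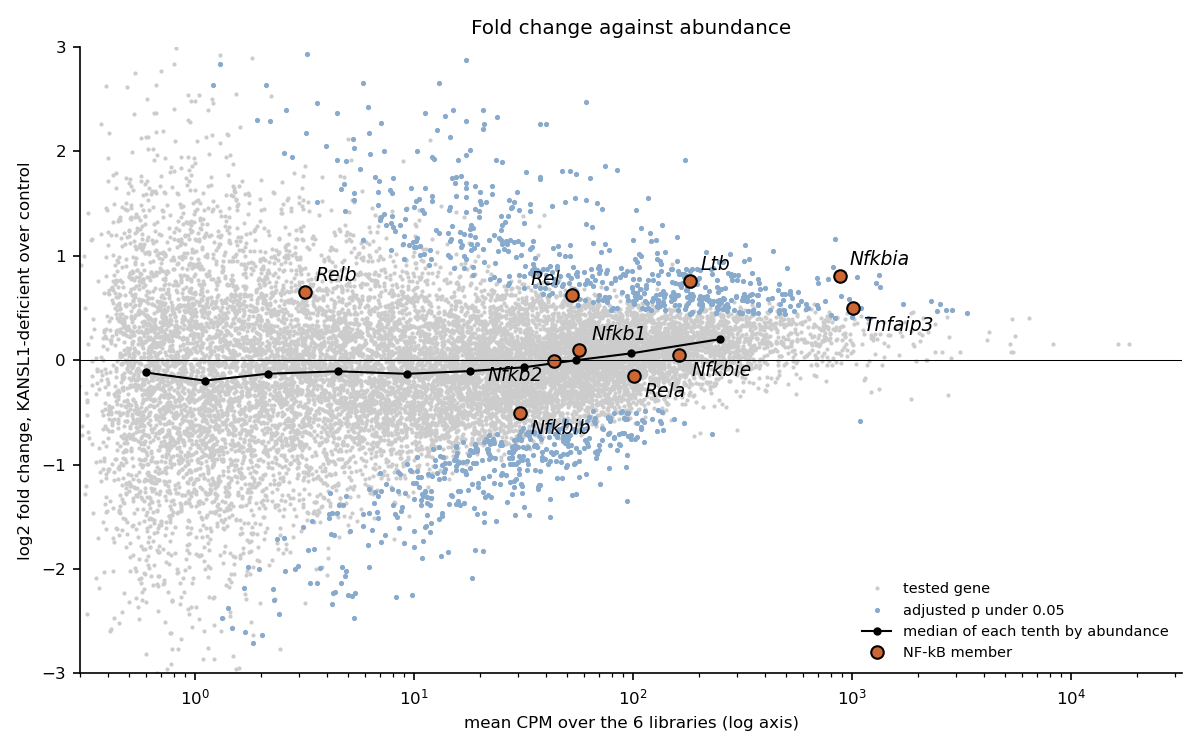
Log2 fold change of every tested gene against its mean CPM on a log axis, with called genes in blue, the 10 members in orange and the median of each decile of genes by abundance as a black line; 74 genes lie outside the plotted range. The median rises to 0.20 in the most abundant decile, and Nfkbia (0.81) and Ltb (0.76) lie above it.

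The rest of the pathway was read from lists of 98 genes, of which 96 were in the table and 86 were tested. Of these 86, 8 rose and none fell in edgeR, beside 3.85% of all tested genes higher and 2.91% lower. The 86 had a median log2 fold change of 0.075. At an unadjusted p under 0.05, 18 were higher and 4 lower, beside 11.7% and 11% of all tested genes. DESeq2 called 12 higher and 1 lower, with 8.6% of all genes called higher, and limma-voom called 9 and 0, with 4.67%. The 8 calls depend on the fit more than that of Nfkbia: with library totals 2 were higher and 1 lower and the median was -0.074, with log2 FPKM 0 passed, and with the abundance trend removed 2 passed. With 1 library left out between 0 (without KANSL1-deficient replicate 2) and 3 passed.

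Among genes that link the T cell receptor, TNF receptors and Toll-like or IL-1 receptors to IKK, 3 of 20 tested rose and none fell in edgeR. These calls stand beside 3.85% of all tested genes called higher and 2.91% lower. At an unadjusted p under 0.05 in edgeR, 3 of the 20 were higher and 3 lower, beside 11.7% and 11% of all tested genes. DESeq2 called 1 lower and limma-voom 0. The list had 9 positive and 11 negative log2 fold changes, with a median of -0.023. Prkcq, a protein kinase C of T cell receptor signalling, went from 209 ± 1.96 to 313 ± 26.0 CPM, a log2 fold change of 0.58 (errors are SD over 3 mice). Traf2, which encodes an adaptor of TNF receptors, went from 145 ± 23.5 to 212 ± 14.8 CPM (0.55). The kinase subunit gene Chuk, named after its values were seen, had 63.1 ± 12.6 CPM in control and 43.3 ± 2.16 CPM in KANSL1-deficient libraries (SD over 3 mice), and its log2 fold change of -0.54 did not pass with edgeR (adjusted p = 0.0780) and did with DESeq2 (0.0229). Ikbkb and Ikbkg, which encode the other core parts of IKK, had fold changes of 0.878 (95% interval 0.695 to 1.11) and 1.03 (0.816 to 1.31), and neither passed.

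In the alternative pathway, which runs through the kinase gene Map3k14, Traf2 was the 1 gene of 7 that rose. This is the same call of Traf2 already counted among the genes that link receptors to IKK. In a list of 21 tested inhibitors and other regulators that act on IkB or on its upstream signals, 2 rose. Both counts stand beside 3.85% of all tested genes called higher. The median log2 fold changes of the lists of 7 and 21 were -0.018 and -0.029, beside -0.021 for all tested genes. Itch, which encodes a ubiquitin ligase that works with the Tnfaip3 product, went from 148 ± 19.9 to 227 ± 23.6 CPM (SD, n = 3 each; log2 fold change 0.61). Fbxw11 went from 32.5 ± 3.26 to 50.1 ± 3.45 CPM (0.62). It encodes a receptor that takes phosphorylated IkB to its destruction and so is no inhibitor of the pathway, although the list holds it. None of the 7 or the 21 was called lower by edgeR; at an unadjusted p under 0.05, 1 in each list was, and DESeq2 called 1 lower (Chuk) in the first and 0 in the second.

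Of 11 tested TNF receptor genes, Tnfrsf1b, which encodes a TNF receptor of lymphocytes, rose from 105 ± 11.9 to 154 ± 13.1 CPM (SD over 3 mice each), a log2 fold change of 0.55 ± 0.14 (SE; edgeR adjusted p = 0.0330). This 1 call of 11 stands beside 3.85% of all tested genes called higher. Of 7 ligand genes tested, edgeR called 0, as did DESeq2 and limma-voom, and 0 reached an unadjusted p below 0.05. The 3 with the smallest p were Tnfsf10, Tnf and Tnfsf14, with log2 fold changes of 0.57, 0.61 and 0.54. The median log2 fold change was -0.076 for the 11 receptor genes and 0.49 for the 7 ligand genes. The ligand median was the value of Fasl, 0.49 ± 1.12 (SE), which rests on 0 to 32 counts per library (mean 0.72 CPM). All 7 ligand genes were scarce, the highest mean being 8.88 CPM for Tnf, so this median does not show a rise of the ligands as a set. Lta, whose product joins that of Ltb in the heterotrimer, was named after its values were seen: it was read at 2.61, 4.14 and 3.96 CPM in control and 2.26, 4.29 and 2.45 CPM in KANSL1-deficient libraries, with overlap. Ltbr, the receptor gene for the heterotrimer, had 0 to 9 counts per library and was not tested.

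**Figure D5:**
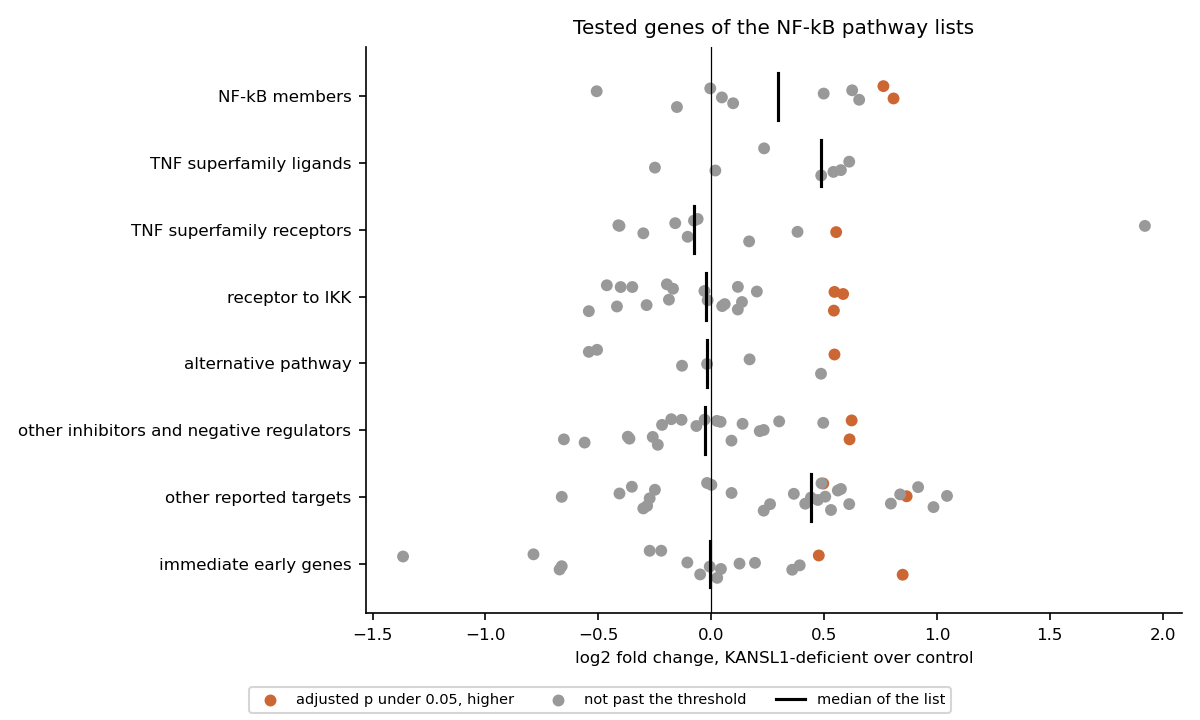
Log2 fold change of each tested gene in the members' list, in the 6 pathway lists and among immediate early genes, with called genes in orange and a bar at the median of each list. The 2 called members, Nfkbia and Ltb, have the largest changes of their list, and no gene shown was called lower.

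Among 29 tested genes from a list of other reported NF-kB targets, Myc and Cflar rose and none was lower at an unadjusted p under 0.05. Myc went from 24.5 ± 5.88 to 44.6 ± 5.99 CPM and Cflar, which encodes an inhibitor of caspase activation, from 97.4 ± 10.1 to 137 ± 10.6 CPM (SD, n = 3 each; log2 fold changes 0.87 and 0.50). The median of the list was 0.44. Over all tested genes 3.85% were called higher and the median was -0.021. Of the 29 genes, 9 were higher at an unadjusted p under 0.05, beside 11.7% of all tested genes, and DESeq2 called 5 higher, beside 8.6%. With 1 library left out, 0 or 1 of the 29 passed in edgeR.

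Immediate early genes, which respond within minutes to receptor signals and to cell handling, were set beside Nfkbia and Ltb because they share stimuli. Their summed level was 6674, 8274 and 7853 CPM in control and 9979, 7183 and 6389.6 CPM in KANSL1-deficient libraries, so the groups overlapped where those of Nfkbia and Ltb did not. Within each group the libraries stood in the same order for this sum, for Nfkbia and for Ltb, with replicate 1 lowest in control and highest in KANSL1-deficient mice. Socs3 and Klf6 rose (log2 fold changes 0.85 and 0.48), 2 of 17 tested genes beside 3.85% of all tested genes, and the median was -0.0064. At an unadjusted p under 0.05 in edgeR, 3 of the 17 were higher and 1 lower, beside 11.7% and 11% of all tested genes. Without KANSL1-deficient replicate 1, edgeR called 0 of the list higher and 1 lower. The calls of Socs3 and Klf6 were both lost when any library other than control replicate 1 was left out. That of Klf6 was also lost with library totals (adjusted p = 0.0867 in edgeR) and with the abundance trend removed, where its log2 fold change was 0.22 (0.28). Their part in the change of Nfkbia and Ltb was not tested.

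Markers of other cell types were read as well, and their counts stand beside 3.85% of all tested genes called higher and 13.2% of the most abundant decile, which holds Gata3, Cd5, Ikzf2 and Ighm. In the CD4 single-positive list, 3 of 7 tested genes rose, Gata3 and Cd5 among them, and the summed level of the list was 748 to 900 CPM in control and 1169 to 1393 CPM in KANSL1-deficient libraries. Its defining gene Zbtb7b had 0 counts in control and 1 in KANSL1-deficient libraries, and Cd40lg had 0 in control and 3 to 12 per KANSL1-deficient library. In the regulatory T cell list Ikzf2 rose, 1 of 5 tested, with sums of 193 to 206 and 275 to 326 CPM, and Foxp3 had 0 to 2 counts per library. In the B cell list Ighm rose, 1 of 5 tested, with sums of 292 to 408 and 495 to 563 CPM. The regulatory T cell list and the B cell list each held 3 tested genes with positive and 2 with negative log2 fold changes. Their medians were 0.49 and 0.024. CD8 single-positive markers summed to 26.2 to 29.1 CPM in control and 15.4 to 18.3 CPM in KANSL1-deficient libraries. Of 2 tested CD8 markers, edgeR called 0, and 2 were lower at an unadjusted p under 0.05, beside 11% of all tested genes. Their median log2 fold change was -1.48. Groups also did not overlap in the sums of double-negative thymocyte markers (80.5 to 90.6 CPM in control and 96.9 to 123 CPM in KANSL1-deficient libraries), of gamma-delta T, NK and NKT markers (22.6 to 26.3 and 27.2 to 32.1 CPM) and of dendritic cell markers (7.59 to 9.10 and 5.70 to 6.74 CPM). The sums of the first and second of these lists were higher in KANSL1-deficient libraries, and that of the third was lower. At an unadjusted p under 0.05 in edgeR, 0 of 7 tested double-negative markers and 0 of 3 tested gamma-delta T, NK and NKT markers passed. Of the 7, 6 had positive log2 fold changes. Of the 3, 1 was positive and 2 were negative, with a median of -0.13. Of 5 tested dendritic cell markers, 1 was lower and 0 higher at an unadjusted p under 0.05 in edgeR. Log2 fold changes were positive for 2 of these 5 and negative for 3, with a median of -0.45. The sums overlapped between groups for macrophage (10.6 to 16.5 and 8.77 to 16.4 CPM), thymic epithelial (23.5 to 30.3 and 21.7 to 27.4 CPM) and erythroid markers (3.87 to 8.85 and 3.91 to 5.21 CPM). The part of any of these cells in the change of Nfkbia and Ltb was not tested.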

How the data were processed

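RNA-seq libraries of sorted double-positive thymocytes from 3 control and 3 KANSL1-deficient mice were grouped by their labels. Per the submitters' processing notes, the authors used STAR, featureCounts and DESeq2 with GRCm39; for versions and strand setting, the sources used here give nothing. Polyadenylated RNA was selected, per the labels' protocols. The authors deposited raw counts for 29626 genes, FPKM values for the same genes, and their comparison: a mean normalized signal, the change as a fold ratio and in log2, and p-values before and after adjustment, per the file headers.

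The main test was edgeR 4.0.16 (R 4.3.3) on the counts: TMM scaling, default filter by group (minimum count 10, minimum total 15), robust quasi-likelihood fit and Benjamini-Hochberg adjustment over 15353 genes at 0.05. CPM are TMM-scaled. The SE is the size of the log2 fold change over the root of F, and 95% intervals use the test's degrees of freedom. Alternatives used DESeq2 1.42.0, limma-voom (limma 3.58.1), limma on log2 FPKM (pseudocounts 1 and 0.1; at least 0.5 FPKM in 3 libraries), other scalings and filters, removal of each library's lowess trend on abundance (span 0.3), a replicate block and each library left out. The fit was tested on simulated data.

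Members and lists were chosen with earlier results of these data known. Named genes were the 10 members, Kansl1, and from each list the genes past the threshold or, with none, the 3 with the smallest p. Labels number the mice but do not say that equal numbers mark a shared litter. Library totals lay between 19361968 and 22459830 counts. No pair of libraries within a group was identical. A few listed genes that the rule would name are not reported here.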

Additional observations from a re-analysis of the deposited data

How the results depend on the processing

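Nfkbia and Ltb kept their direction in every alternative run, and each passed the threshold in 10 of the 11 that used all libraries. Of the 10 members, 4 passed without a filter, with at least 5 CPM in 3 libraries, with DESeq2 and with limma-voom, 0 passed with log2(FPKM + 1) without a filter, and 1 to 3 passed with 1 library left out. The number of genes past the threshold, 1038, was 1729 without a filter, 2040 with DESeq2, 8 with log2(FPKM + 1) without a filter and 283 to 811 with 1 library left out. Of the other pathway genes 8 passed, and 3 did so with library totals, 13 with DESeq2, 0 with log2(FPKM + 1), with or without a filter, and with log2(FPKM + 0.1), 2 with the abundance trend removed and 0 to 3 with 1 library left out. With replicate number as a block, 2 members (Nfkbia and Ltb), 0 other pathway genes and 406 genes in all passed; same-numbered libraries did not deviate together (correlations -0.05, -0.02 and -0.10), and 0 of 6 libraries correlated best with their own number, so the numbers were not taken as pairs. The log2 fold change of Nfkb1 turned to -0.0528 with library totals, to -0.0455 with log2(FPKM + 1), with and without a filter, and to -0.0547 with log2(FPKM + 0.1). That of Nfkbie turned to -0.10 with library totals, log2(FPKM + 1) with and without a filter and the abundance trend removed, to -0.11 with log2(FPKM + 0.1), and lay between -0.0239 and 0.10 with 1 library left out. That of Nfkb2 turned to 0.0277 with the abundance trend removed and lay between -0.0902 and 0.0547 with 1 library left out. By deposited FPKM the groups also did not overlap for Nfkbib, so 5 members did not overlap in place of 4. The cause of these changes was not tested. With 3 mice per group and 40 to 108 counts per library, the level of Relb was not resolved.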
